A study of Rattus norvegicus with 4 samples.

Results

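The 10 genes described here act at the steps by which a fat cell takes up, binds and activates fatty acids. They are Lpl, Gpihbp1, Angptl4, Cd36, Vldlr, Fabp4, Fabp5, Slc27a1, Slc27a4 and Acsl1. They were chosen by name, and each had at least 1 array row whose platform annotation gave that symbol alone. All 10 were found, among 14506 genes with such a row and 29214 rows in all. Cd36 and Fabp5 had 2 rows each, of which the row with the higher mean over the arrays was kept. The tissue was retroperitoneal adipose tissue, a visceral white fat depot, of male WNIN/Ob rats, a strain with an obese and a lean phenotype. There were 2 obese and 2 lean rats, all 4 months old, untreated and fed stock diet ad libitum, and each rat gave 1 Affymetrix Rat Gene ST array. The labels name no allele for either phenotype, and they do not say whether the lean rats carry the obesity mutation.

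Triglyceride reaches fat in lipoproteins. Lipoprotein lipase, made by the fat cell and carried to the capillary wall by Gpihbp1, releases fatty acids from them, and angiopoietin-like proteins restrain the lipase. Cd36, caveolae and the Slc27 transport proteins help fatty acids across the membrane, Fabp proteins bind them inside the cell, and acyl-CoA synthetases such as Acsl1 activate them for esterification or oxidation. Many of these genes are known targets of PPAR-gamma, the transcription factor of fat cell differentiation.

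Values are log2 intensities, and differences are obese minus lean on that scale. With 2 arrays per group the precision is low. Lean rat 2 had a narrower spread of values than the other arrays, with an interquartile range of 2.05 against 2.65 and 2.73 in the obese rats and 2.54 in lean rat 1. The top of its scale was lower, with a 95th percentile over genes of 8.69, against 9.12 and 9.19 in the obese rats and 8.99 in lean rat 1. Levels below are therefore also given after quantile normalization where it changes what is seen. All 10 genes lay above the 95th percentile of 188 olfactory and vomeronasal receptor genes, used as a guide to background, on every array. That guide was highest in lean rat 2, at 5.24, against 4.48 and 4.55 in the obese rats and 4.68 in lean rat 1. Slc27a4 was the closest to it, 0.055 above it in lean rat 2.

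The adipocyte markers were present on every array, which does not tell the depot or how pure a sample was. Their intensities summed to 12371 and 15295 in the obese rats, against 12083 and 12657 in the lean rats, and none of the 11 measured passed the test. The markers did not move alike. Their median difference was 0.18, and single differences ran from -1.60 for Adrb3 (limma adjusted p = 0.067) to 0.51 for Cidec. Lean rat 1 stood apart in 18 skeletal muscle genes, which summed to 51559 there, against 1010 and 733 in the obese rats and 945 in lean rat 2. It was also highest in 6 mesothelial markers, which summed to 818 there, against 183 and 223 in the obese rats and 263 in lean rat 2. Macrophage markers summed to 17297 and 12014 in the obese rats, against 4454 and 4228 in the lean rats, and 6 of 16 rose while none fell. The 14 endothelial markers summed to 2370 and 2387 in the obese rats, against 2888 and 2863 in the lean rats, with none passing. Red cell markers, 4 genes, summed to 4371 and 1365 in the obese rats, against 4355 and 8119 in the lean rats. In whole tissue, more cells of a type and more RNA per cell cannot be told apart.

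**Figure D1:**
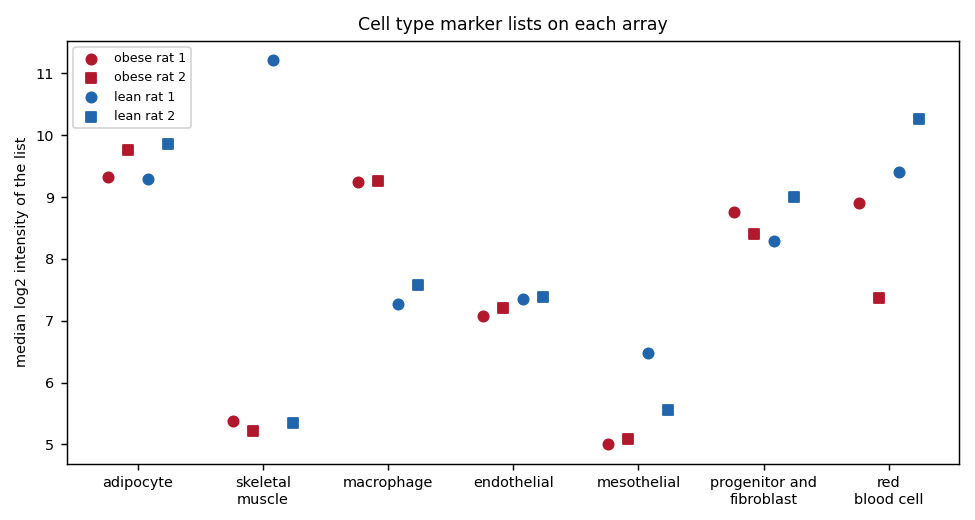
Median log2 intensity of each cell type marker list (vertical axis) on each array, with obese rats in red and lean rats in blue, circles for rat 1 and squares for rat 2. Lean rat 1 stands apart for skeletal muscle genes (11.2, against 5.37 and 5.22 in the obese rats and 5.35 in lean rat 2), and the macrophage list is higher in both obese rats (9.24 and 9.26) than in the lean rats (7.27 and 7.58).

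For 8 of the 10 genes the obese rats were both higher than either lean rat. The exceptions were Gpihbp1 and Angptl4, whose groups overlapped, and for none of the 10 were the obese rats both lower. Among all genes tested, 26.4% had both obese values above the lean values and 21.3% had both below. The median difference of the 10 was 0.48, beside 0.00047 for all genes, and single differences ran from -0.07 to 1.07. After quantile normalization the medians were closer, at 0.34 for the 10 and 0.049 for all genes. Without the lowest 25% of genes by mean level, the median of the remaining genes was 0.11. None of the 10 passed limma's test at an adjusted p under 0.05, where 0.841% of all genes passed, and their adjusted p ran from 0.143 to 0.946. At an unadjusted p under 0.05, limma gave 3 of the 10, Fabp5, Slc27a4 and Slc27a1, all higher in obese fat, where 9.93% of all genes were higher and 5.33% lower at that level. The 10 genes were named with earlier results of these data known, so their count and median are descriptions.

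**Figure D2:**
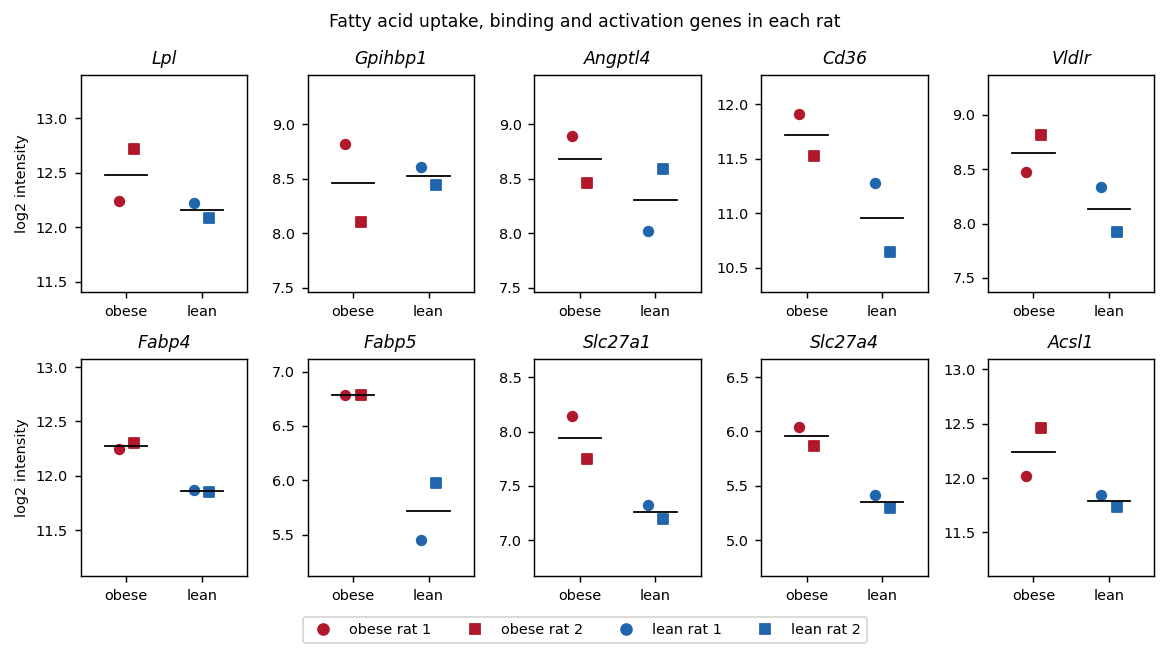
Log2 intensity (vertical axis, a span of equal length in each panel) of the 10 genes in the obese rats (red, left) and the lean rats (blue, right), with circles for rat 1, squares for rat 2 and bars for group means. The groups overlap for Gpihbp1 and Angptl4, and the 2 obese rats nearly coincide for Fabp5 (6.79 and 6.78).

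Lpl, the lipase itself, was at 12.24 and 12.72 in the obese rats, against 12.22 and 12.09 in the lean rats. Obese rat 1 exceeded lean rat 1 by 0.018, so the separation rested on obese rat 2. The difference was 0.32 ± 0.32 (SE, n = 2 per group), with a 95% interval from -0.41 to 1.06 and a limma adjusted p of 0.673. Leaving out obese rat 2 gave 0.083 and leaving out obese rat 1 gave 0.56. After quantile normalization the groups overlapped. Lpl lay close to the top of the scale, since the brightest gene of each array was between 12.9 and 13.2.

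Gpihbp1, the endothelial protein that holds the lipase on the capillary wall, was at 8.82 and 8.10 in the obese rats, against 8.61 and 8.44 in the lean rats. The lean rats lay between the obese rats, and the gap of 0.72 between the obese rats was the widest within a group for any of the 10 genes. The difference was -0.07 ± 0.34 (95% interval -0.86 to 0.72, limma adjusted p = 0.946). Leaving out obese rat 1 gave -0.43, leaving out obese rat 2 gave 0.29 and leaving out lean rat 1 gave 0.016, so its sign was not settled. It was also 0.031 when arrays were centred on their medians. Relative to the median endothelial marker of the same array, Gpihbp1 was at 1.74 and 0.89 in the obese rats, against 1.26 and 1.05 in the lean rats, and the groups still overlapped.

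Angptl4, a secreted inhibitor of the lipase that is induced by fasting and fatty acids, was at 8.89 and 8.46 in the obese rats, against 8.02 and 8.59 in the lean rats. Lean rat 2 lay above obese rat 2. The difference was 0.37 ± 0.34 (95% interval -0.41 to 1.15, limma adjusted p = 0.644), and it was 0.091 without lean rat 1 and 0.65 without lean rat 2. The level of Angptl4 relative to Lpl on the same array was -3.34 and -4.25 in the obese rats, against -4.20 and -3.50 in the lean rats. That relative level differed by 0.050, less than the gap between rats of 1 group, and its sign turned without lean rat 1 (-0.30), without obese rat 1 (-0.41) and after quantile normalization (-0.12).

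Angptl8, a relative of Angptl4 that is induced by feeding and insulin, was not among the 10 genes but belongs to the wider list of lipase regulators. It was at 9.66 and 9.19 in the obese rats, against 6.69 and 6.98 in the lean rats. The lowest obese value lay 2.21 above the highest lean value. It rose by 2.59 ± 0.31, 6.03-fold in linear terms, with a limma adjusted p of 0.018. The call held without each rat in turn, with differences from 2.36 to 2.83 and adjusted p from 2.17e-05 to 0.029.

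The promoters of these related lipase inhibitors are printed because Angptl8 was the called lipase regulator and Angptl4 is its relative among the 10 genes. The sequences are from RefSeq, build GRCr8, and run from 250 bases before to 50 after the annotated start. Capitals mark matches to any of 8 motifs: DR1 (AGGNCANAGGNCA, bound by PPAR and RXR), DR4 (AGGNCANNNNAGGNCA), the nuclear receptor half-site (AGGTCA), a sterol element (TCACNCCAC), an E-box (CACGTG), the TATA box motif (TATAAA), the CAAT box motif (CCAAT) and the GC box (GGGCGG), searched on both strands.
Angptl8, chr8:28652305-28652604, plus strand: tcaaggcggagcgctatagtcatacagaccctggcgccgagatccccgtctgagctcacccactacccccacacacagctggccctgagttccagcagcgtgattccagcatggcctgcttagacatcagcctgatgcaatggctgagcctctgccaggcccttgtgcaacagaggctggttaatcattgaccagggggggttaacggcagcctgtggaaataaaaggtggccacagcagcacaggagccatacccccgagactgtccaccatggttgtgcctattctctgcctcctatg
Angptl4, chr7:15258632-15258931, minus strand: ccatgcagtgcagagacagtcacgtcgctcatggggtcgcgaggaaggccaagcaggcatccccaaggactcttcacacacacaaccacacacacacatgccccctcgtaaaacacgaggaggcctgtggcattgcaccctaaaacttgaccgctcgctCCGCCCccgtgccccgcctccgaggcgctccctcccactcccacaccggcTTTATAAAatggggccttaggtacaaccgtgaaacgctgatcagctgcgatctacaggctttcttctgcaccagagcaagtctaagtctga
The Angptl8 window held none of the 8 motifs. The Angptl4 window held TATAAA on both strands in overlap, from 41 bases before the start, and 1 GC box, motifs found in 14.3% and 34.9% of 27457 rat promoters. A match is only a description of the letters.

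Cd36, the fatty acid translocase and a scavenger receptor also made by macrophages, muscle and capillary endothelium, was at 11.91 and 11.53 in the obese rats, against 11.28 and 10.64 in the lean rats. Both obese rats were higher, and the lean rats were 0.64 apart. The difference was 0.76 ± 0.35 (95% interval -0.05 to 1.57, limma adjusted p = 0.350). It was 0.44 without lean rat 2 and 1.08 without lean rat 1, the array with the muscle signal. The other Cd36 row gave 0.93 with the same order of the 4 rats. The rat genome is known to carry near-identical copies of Cd36 sequence, so its probes may read more than 1 copy.

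Vldlr, the very-low-density lipoprotein receptor, which binds triglyceride-rich particles beside the lipase, was at 8.48 and 8.81 in the obese rats, against 8.34 and 7.93 in the lean rats. The closest obese and lean values were 0.14 apart, less than the gaps within either group. The difference was 0.51 ± 0.32 (95% interval -0.22 to 1.24, limma adjusted p = 0.477), and with a rat left out it ran from 0.30 to 0.72. Unlike Cd36, Vldlr was higher in obese rat 2 than in obese rat 1.

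The genes of both transport proteins had differences of like size. Slc27a1 (FATP1), an insulin-responsive acyl-CoA synthetase and transporter of fat and muscle, was at 8.14 and 7.75 in the obese rats, against 7.33 and 7.20 in the lean rats, a difference of 0.68 ± 0.29 (95% interval 0.0012 to 1.36, limma adjusted p = 0.327). Slc27a4 (FATP4), its widely expressed relative, was at 6.04 and 5.87 in the obese rats, against 5.41 and 5.30 in the lean rats, a difference of 0.60 ± 0.23 (95% interval 0.056 to 1.14, limma adjusted p = 0.290). The lowest obese value lay 0.42 above the highest lean value for Slc27a1 and 0.45 above it for Slc27a4. With a rat left out the differences ran from 0.48 to 0.88 for Slc27a1 and from 0.51 to 0.69 for Slc27a4. Slc27a4 relative to Slc27a1 on the same array was at -2.1 and -1.88 in the obese rats, against -1.91 and -1.90 in the lean rats. The change in that relative level was -0.08, its groups overlapped (exact two-sided permutation p = 1.00 over the 4 arrays, where 0.333 is the smallest possible), and its sign turned after quantile normalization (0.15) and without obese rat 1 (0.030).

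The promoters of this pair are printed because the differences of the 2 genes lay close together.
Slc27a1, chr16:18312717-18313016, plus strand: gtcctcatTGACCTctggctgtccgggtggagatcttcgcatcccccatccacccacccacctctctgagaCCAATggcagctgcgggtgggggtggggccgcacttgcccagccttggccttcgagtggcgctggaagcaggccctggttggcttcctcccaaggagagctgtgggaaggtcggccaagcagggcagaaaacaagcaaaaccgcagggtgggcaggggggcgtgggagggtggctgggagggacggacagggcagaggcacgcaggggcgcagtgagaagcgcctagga
Slc27a4, chr3:33472653-33472952, plus strand: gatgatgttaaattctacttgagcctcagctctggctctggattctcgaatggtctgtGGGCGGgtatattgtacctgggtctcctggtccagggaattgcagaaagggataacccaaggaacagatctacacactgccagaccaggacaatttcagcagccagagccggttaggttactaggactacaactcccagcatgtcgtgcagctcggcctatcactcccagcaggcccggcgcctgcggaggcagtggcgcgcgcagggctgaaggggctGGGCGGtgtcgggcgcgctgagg
With the motifs listed above in capitals, Slc27a1 held 1 nuclear receptor half-site on the reverse strand, a motif in 15.7% of rat promoters, and 1 CCAAT, in 37.7%. Slc27a4 held 2 GC boxes and neither of the others. None of the 6 members with a promoter sequence held a DR1 match, which 0.412% of all promoters do. This says only that those letters are not in these windows.

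Fabp4 (aP2), the main fatty acid binding protein of fat cells, was at 12.25 and 12.30 in the obese rats, against 11.87 and 11.85 in the lean rats. The rats of each group lay within 0.058 of each other, and the groups were 0.37 apart at their closest. The difference was 0.41 ± 0.29 (95% interval -0.27 to 1.09, limma adjusted p = 0.541). Leaving out any rat moved it little, to between 0.38 and 0.44. The SE is far wider than the spread of these 4 values because limma shares the spread among genes. After quantile normalization Fabp4 was at 12.19 and 12.32 in the obese rats, against 11.80 and 12.19 in the lean rats, so the separation was lost, with a difference of 0.26.

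Fabp5, the epidermal-type binding protein, which fat cells, macrophages and endothelium also make, had the largest difference of the 10 genes. It was at 6.79 and 6.78 in the obese rats, against 5.45 and 5.98 in the lean rats. The obese rats were nearly equal, and the lowest of them lay 0.80 above the higher lean rat. The difference was 1.07 ± 0.28 (95% interval 0.43 to 1.71, limma adjusted p = 0.143). Among the 13 alternatives tried, it passed only without lean rat 2 (1.33, adjusted p = 0.037), where 3.29% of all genes passed, and was 0.81 without lean rat 1. Without lean rat 2, the only lean array left was lean rat 1, the one with the muscle signal. After quantile normalization the difference was 1.01. At its closest, Fabp5 lay 0.74 above the background guide. The macrophage list, given above, was also higher in the obese rats, and its part in the Fabp5 difference was not tested. Both Fabp5 rows held the same value on each array, so they are 1 measurement, and because Fabp5 has related copies in rodent genomes the row may read more than 1 of them.

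The level of Fabp5 relative to Fabp4 on the same array was -5.46 and -5.52 in the obese rats, against -6.42 and -5.87 in the lean rats. The level was higher in both obese rats, by 0.66 on average, and by 0.38 to 0.93 with a rat left out. This was the one of 7 gene pairs compared whose groups did not overlap. The exact two-sided permutation p was 0.333, the smallest that 2 against 2 arrays allow, and 1.00 after adjustment over the 7 pairs by the Benjamini-Hochberg method. In the pairs not yet given, the relative level differed by -0.39 for Gpihbp1 over Lpl, 0.19 for Vldlr over Lpl, 0.35 for Cd36 over Fabp4 and -0.23 for Acsl1 over Slc27a1, all with overlapping groups. The lean rats decided the size of 2 of these, since without lean rat 2 the difference was 0.047 for Vldlr over Lpl and 0.042 for Cd36 over Fabp4, and without lean rat 1 it was 0.33 and 0.65.

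Acsl1, the main long-chain acyl-CoA synthetase of fat, was at 12.02 and 12.46 in the obese rats, against 11.84 and 11.73 in the lean rats. As for Lpl, obese rat 2 was the high sample. The difference was 0.45 ± 0.32 (95% interval -0.28 to 1.18, limma adjusted p = 0.531), with 0.23 when obese rat 2 was left out and 0.67 when obese rat 1 was. After quantile normalization the groups overlapped, with a difference of 0.26.

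**Figure D3:**
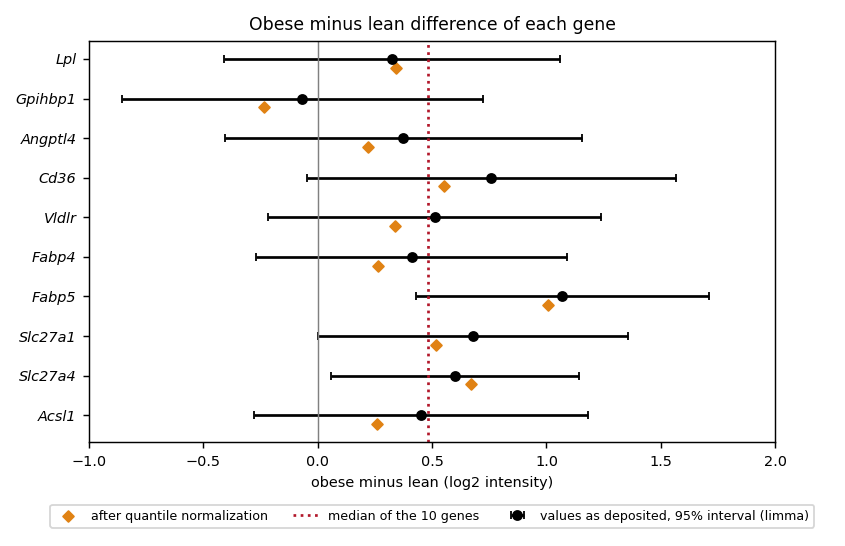
Obese minus lean difference in log2 intensity (horizontal axis) of the 10 genes, with limma's 95% interval (black), the same difference after quantile normalization (orange diamonds) and the median of the 10 genes (dotted line, 0.48). The intervals of Fabp5, Slc27a1 and Slc27a4 lie above 0, before adjustment for the number of genes tested.

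Within the obese group the genes did not share an order. Lpl, Vldlr, Fabp4 and Acsl1 were higher in obese rat 2, and the other 6 were higher in obese rat 1, Fabp5 by only 0.0071. The summed macrophage and red cell markers were also higher in obese rat 1. The median macrophage marker was not, at 9.24 in obese rat 1 and 9.26 in obese rat 2. In the lean group 8 of the 10 were higher in lean rat 1, the array with the muscle signal, and Angptl4 and Fabp5 were lower there. That order depended on the scaling, since quantile normalization put Lpl, Fabp4, Slc27a1 and Acsl1 lower in lean rat 1. They were then at 12.05, 11.80, 7.31 and 11.77 in lean rat 1, against 12.31, 12.19, 7.38 and 12.07 in lean rat 2. Lpl, Cd36, Slc27a1 and Acsl1 are known to be made in skeletal muscle too, and the part of the muscle signal in the values of the 10 genes was not tested. After quantile normalization both obese rats remained above both lean rats for 5 of the 10 genes, Cd36, Vldlr, Fabp5, Slc27a1 and Slc27a4, where 28.6% of all genes were so placed.

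**Figure D4:**
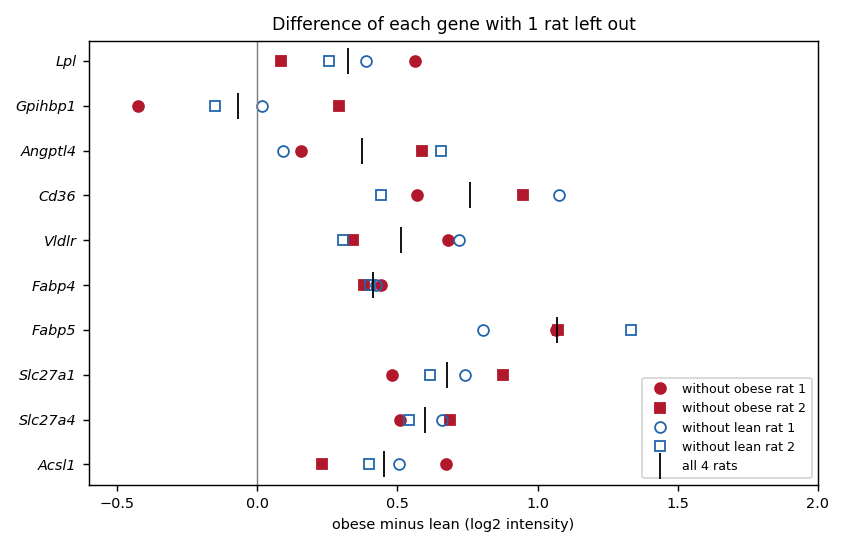
Obese minus lean difference in log2 intensity (horizontal axis) of the 10 genes with all 4 rats (black ticks) and with 1 rat left out (filled red without an obese rat, open blue without a lean rat). Gpihbp1 changes sign, from -0.43 to 0.29, and the other 9 genes stay above 0.

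Each gene was also set against the adipocyte markers of the same array. The median of the 11 markers was 9.32 and 9.76 in the obese rats, against 9.29 and 9.86 in the lean rats. It is the value of a single gene, Retn on obese rat 1 and both lean arrays and Lipe on obese rat 2. Relative to this marker median, Fabp5 was at -2.53 and -2.98 in the obese rats, against -3.84 and -3.89 in the lean rats, a difference of 1.11. Vldlr and Acsl1 were also higher in both obese rats by this measure, by 0.55 and 0.49. The groups overlapped for the other 7 genes, and 15.4% of all genes scaled in this way were higher in both obese rats. Without lean rat 2 the relative levels of Vldlr and Acsl1 differed by 0.055 and 0.15, and without lean rat 1 by 1.04 and 0.83, while that of Fabp5 differed by 0.88 to 1.33 with a rat left out. With the mean of the markers in place of the median, a choice made after seeing the data, both obese rats were higher for the same 8 genes as before scaling, beside 27.5% of all genes, and Gpihbp1 and Angptl4 again overlapped. No exact permutation p of these relative levels can be below 0.333.

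The 6 wider lists of fatty acid handling, which leave out the 10 genes, held 61 measured genes, and 35 of them lay above the background guide on every array. Of these 2 rose, Angptl8 and Dbi, none fell and 59 did not pass. That is against 0.772% of all genes rising and 0.0689% falling. The median of the 61 genes was 0.10. Both obese values were above the lean values for 20 of them and below for 6, beside the 26.4% and 21.3% of all genes given above.

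Among 14 other lipid binding proteins, Dbi rose and none fell, with a list median of -0.02. That median includes genes near background. Fabp1, Fabp2, Fabp6, Fabp9, Pmp2 and Acbd7 lay above the background guide on no array, Fabp12 on 1 and Fabp7 on 2. Dbi, the acyl-CoA binding protein that carries activated fatty acids, was at 8.25 and 8.11 in the obese rats, against 6.47 and 6.53 in the lean rats. The rats of each group were close together, and the groups were far apart. The difference was 1.68 ± 0.27, 3.21-fold, with a limma adjusted p of 0.041. The call was lost without obese rat 1 (1.61, adjusted p = 0.080), after quantile normalization (1.55, adjusted p = 0.068) and over all rows of the table (adjusted p = 0.059). Fabp3, the heart and muscle type, was at 8.09 and 7.35 in the obese rats, against 7.61 and 6.0 in the lean rats, so the groups overlapped, with lean rat 1 far above lean rat 2. Without lean rat 1, where 7.45% of all genes passed in either direction and 4.58% rose, Fabp3 passed (1.72, limma adjusted p = 0.048), and without lean rat 2 it was at 0.11 (adjusted p = 0.922).

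Of 12 regulators of the lipase, Angptl8 rose, none fell and 11 did not pass (median 0.38). Of 4 lipoprotein receptors none passed (median 0.43). Sort1, the sorting receptor sortilin, was at 0.70 and Lsr, the lipolysis-stimulated receptor, at -0.55, with limma adjusted p of 0.329 and 0.334, but Lsr lay above the background guide on only 1 of the 4 arrays. None of 11 other transporters and caveola genes passed (median 0.22). Cav2, a caveolin, was at 10.01 and 9.68 in the obese rats, against 8.96 and 8.48 in the lean rats, a difference of 1.12 with a limma adjusted p of 0.191. Slc27a3, another member of the transporter family, was at 0.67 (limma adjusted p = 0.256), close to the values of Slc27a1 and Slc27a4. The remaining Slc27 genes measured, Slc27a2, Slc27a5 and Slc27a6, were at -0.64, -0.37 and -0.43, with limma adjusted p from 0.343 to 0.600. Of the 4 arrays, Slc27a2 lay above the background guide on only 1, Slc27a5 on 2 and Slc27a6 on 3.

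None of 11 other acyl-CoA synthetases passed (median 0.17). Acss2, which activates acetate in the cytosol, was at 9.25 and 9.36 in the obese rats, against 8.44 and 7.42 in the lean rats, a difference of 1.37 with a limma adjusted p of 0.177. Without lean rat 1, Acss2 passed (1.88, limma adjusted p = 0.031), and without lean rat 2 it was at 0.86 (adjusted p = 0.222). Acsl3, a long-chain synthetase of lipid droplets, also passed without lean rat 1 (1.82, limma adjusted p = 0.033), and turned to -0.12 (adjusted p = 0.888) when lean rat 2 was left out. Acsm5, a medium-chain synthetase, was at -0.48 (adjusted p = 0.389) and lay above the background guide on 3 of the 4 arrays. None of 9 acyl-CoA thioesterases, which undo the activation, passed (median 0.08). Acot9 and Acot2, both mitochondrial, were at 0.76 and 0.69, with limma adjusted p of 0.342 and 0.430. Acot2 passed without lean rat 1 (1.24, limma adjusted p = 0.047) and was at 0.15 (adjusted p = 0.838) without lean rat 2. Acot9 was at 1.13 (limma adjusted p = 0.062) without lean rat 1 and at 0.38 (adjusted p = 0.580) without lean rat 2.

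**Figure D5:**
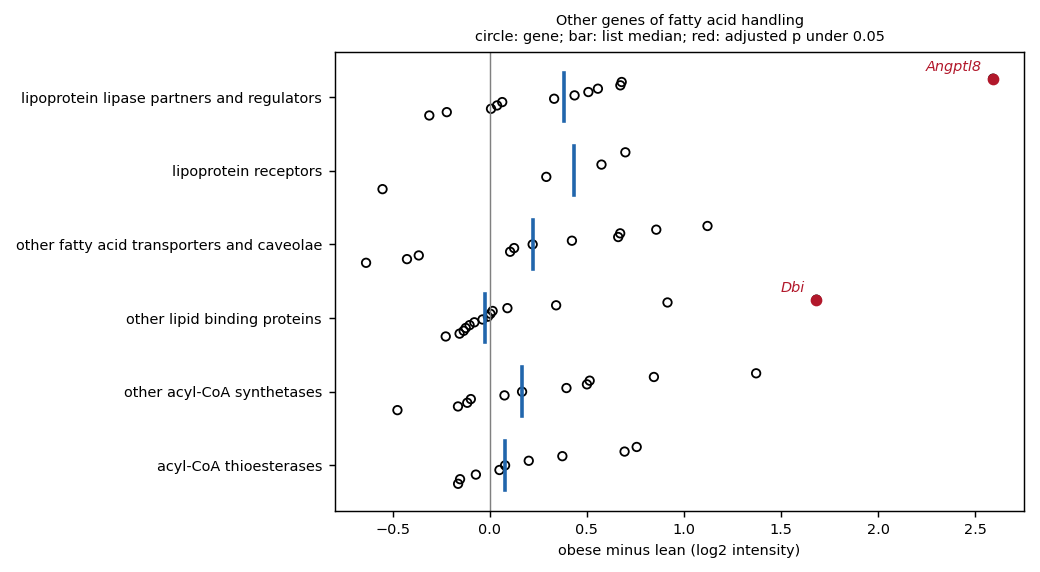
Obese minus lean difference in log2 intensity (horizontal axis) of each gene of the 6 wider lists (open circles), with list medians (blue bars) and genes at an adjusted p under 0.05 in red. Angptl8 (2.59) and Dbi (1.68) stand to the right of the rest, and the list medians lie between -0.02 and 0.43.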

How the data were processed

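The authors deposited 1 intensity for each row on each array, made with RMA per the submitters' processing notes. No source used here names the software or the probe-set level. Trizol extraction used 500 mg of frozen tissue, and labelling began from 100 ng of RNA, per the labels' protocols. Values ran from 2.03 to 12791, on a linear scale, and log2 was taken with no pseudocount. Rows were named through the platform annotation. Of 29214 rows, 15310 had 1 symbol, which gave 14506 genes.

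The phenotypes were compared over the 4 arrays with limma 3.58.1 (R 4.3.3), using lmFit, then eBayes with its trend option. Adjustment was by Benjamini-Hochberg over all genes, at a threshold of 0.05. Relative levels of gene pairs used an exact two-sided permutation test. The rat numbers did not pair the arrays.

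In simulated data with these means and spread, the fit recovered 3.32% of genes shifted by 1, 75.4% at a shift of 2 and 97.1% at a shift of 3, with 5.34% false calls. Shifts below 1, the size of 9 of the 10 differences, were not simulated.

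The members and lists were chosen with earlier results of these data known. Named beyond the members were called genes of each wider list and otherwise the 2 with the smallest p. Fabp3, Acsl3, Slc27a2, Slc27a5 and Slc27a6 were chosen after their values were seen. Of 10 members, 6 matched a RefSeq promoter. Figures were drawn with matplotlib 3.10.9.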

Additional observations from a re-analysis of the deposited data

How the results depend on the processing

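None of the 10 genes passed under 12 of the 13 alternatives, and 1, Fabp5, passed without lean rat 2, so 0 to 1 passed with a rat left out. The count over all genes, 122, was 327 with the rat number as a replicate block, 75 with quantile normalization, 262 with robust variance, 185 over all rows of the table and 268 to 1081 with a rat left out. Of the wider lists, 2 genes passed, against 1 with quantile normalization, 1 over all rows and 1 to 6 with a rat left out. The 6, without lean rat 1, were Angptl8, Dbi, Fabp3, Acsl3, Acss2 and Acot2, in the setting where 1081 of all genes passed. Angptl8 passed under all 13 alternatives. The replicate block changed no call of the 10 genes or of the named genes. Deviations of same-numbered rats from their group means correlated at 0.020 across genes, and with 2 pairs the samples share only a number.

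Among the 10 genes, 1 changed sign, Gpihbp1, at 0.031 with arrays centred on their medians and from -0.43 to 0.29 with a rat left out. Quantile normalization turned Slc27a4 relative to Slc27a1 (0.15), Angptl4 relative to Lpl (-0.12) and Vldlr relative to Lpl (-0.0033). With a rat left out, Slc27a4 relative to Slc27a1 ran from -0.19 to 0.030, Angptl4 relative to Lpl from -0.41 to 0.50, Gpihbp1 relative to Lpl from -0.99 to 0.21 and Acsl1 relative to Slc27a1 from -0.65 to 0.19. Relative to the adipocyte markers, Gpihbp1 ran from -0.61 to 0.55 and Angptl4 from -0.026 to 0.84, and Gpihbp1 relative to the endothelial markers ran from -0.27 to 0.58. The cause was not tested. Without a lean rat, limma's spread came from the obese pair alone, and without an obese rat from the lean pair, and the lone rat was assumed to vary like the others. The 2 rats per group limit every value.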
